A study of Mus musculus with 192 samples.

Results

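The genes described here are 56 genes of mitosis, the division of replicated chromosomes between daughter cells, measured in single blood progenitor cells of the mouse. They were taken from a fixed list of symbols, matched to the Ensembl identifiers of the deposited counts, and kept with 10 or more UMIs (unique molecular identifiers, each standing for 1 captured RNA molecule) over all cells. All 56 listed genes were found and passed, with 14 UMIs (Cdc25c) to 909 (Smc4) each, out of 20764 genes in the counts. None lay between 0 and 10 UMIs.

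The samples were 192 single bone marrow cells of C57BL/6 mice aged 8 to 16 weeks, sorted as LSK cells, the lineage-marker-negative, Sca-1-positive and cKit-positive fraction that holds stem and early progenitor cells. A magnetic bead step for cKit preceded the sort, and the labels give no treatment for these cells. They list Pep3b, Cas9-Tg and Dach1-GFP mice for the study, but C57BL/6 as the strain of every cell here. For each cell the labels give the sorter's signals of CD135, CD150, CD127, CD16/32, CD11b, Sca-1 and cKit with forward and side scatter, all in arbitrary units. Libraries were made in 2 pools of 96 cells with the same 96 cell indices in both. The labels name no animal, so all cells counted as 1 biological sample. No test and no p-value was therefore possible. Every 95% interval covers counting error only, not differences between cells or animals.

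Mitosis follows DNA replication. Cdk1 with its cyclins starts it, condensins and topoisomerase II fold the chromosomes, and kinetochores join them to the spindle. The spindle checkpoint delays anaphase until all chromosomes are attached, and the anaphase-promoting complex then degrades cyclins and securin before the cell is cut in 2. Most RNAs of this programme are made late in the cell cycle, and stem cells of adult marrow are known to divide rarely. The RNAs are commonly used to mark dividing cells of any lineage.

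The 191 cells kept had 3704842 gene UMIs, from 3927 to 49372 in a cell (median 17715) and 4910 detected genes. A cell with 708 gene UMIs was left out. Kit RNA was found in 188 of the 191 cells and Cd34 in 95.3% of them, while Ly6a, which encodes Sca-1, was found in 72. Of the genes of mature lineages, S100a8 had 0 UMIs, Alas2 had 2 and Pax5 had 1, while Cd79a had 42 UMIs in 6 cells.

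How many cells carried the programme? The 56 genes together had 7945 UMIs, or 2144 per 1000000 gene UMIs (CPM; 95% Poisson interval 2098 to 2192). Every cell had at least 1 of these UMIs. The median cell had 17 UMIs from 9 of the 56 genes, or 1032 CPM, and cells ranged from 127 to 18979.5 CPM. Cells with UMIs of at least 28 of the 56 genes, called carriers here, numbered 17 of 191 (8.90%, exact Clopper-Pearson interval 5.27 to 13.9). At least 14 genes were found in 43 cells, at least 42 in 9 and at least 50 in 4. No cell had between 39 and 46 of the genes, but the cut at 28 lay in no gap: 5 cells had 23 to 27 genes and 4 had 28 to 32. Carriers were deep cells, with a median of 33929 gene UMIs. After each cell was thinned to 12147 UMIs, which left out 19 shallower cells, 9 of 172 cells (5.23%, 2.42 to 9.70) still had 28 genes.

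The UMIs of the programme were held by few cells. Cells were ranked by mitosis gene UMIs per gene UMI, and the 19 highest are called the richest and numbered from cell 1. Cell 1 alone held 793 UMIs, 9.98% of the total, from 55 of the 56 genes. The 5 richest held 29.0%, the 10 richest 44.8% and the 19 richest 55.1% (54.0 to 56.2), while the 19 had 15.6% of all gene UMIs. The 38 richest held 67.6%. The rank at 19 was also no gap: cell 19 stood at 3130.0 CPM and the next cell at 2947. Of the 17 carriers, 16 were among the 19. The richest had a median of 30692 gene UMIs (15173 to 49372) against 17059.5 in the other 172 cells (3927 to 39271). Spike-in UMIs, from RNA added to each well, had medians of 602 and 606.5. Pool 1 held 12 of the richest and stood at 2406 CPM, and pool 2 held 7 and stood at 1859.

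**Figure D1:**
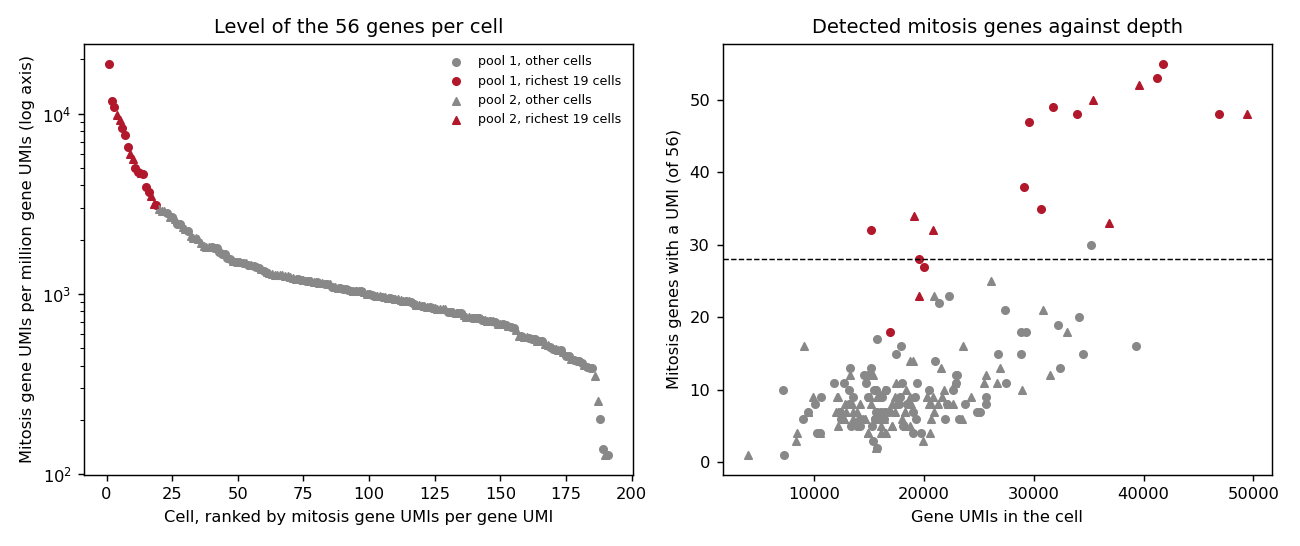
Left, CPM of the mitosis genes in each of the 191 cells (log axis), in rank order; right, number of the 56 genes with a UMI against the gene UMIs of the cell, with a dashed line at 28 genes. Red marks the 19 richest cells, circles pool 1 and triangles pool 2. The level falls from 18979.5 in cell 1 to 3130.0 in cell 19 with no step to the next cell at 2947, and the cells with 42 or more genes all lie to the right, at high depth.

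The 56 genes were unequally tied to these cells. Since the genes chose the cells, the shares that follow describe and test nothing. The median gene had 69.3% of its UMIs in the 19 richest cells, 44 genes had more than 50% there and 22 more than 75%. Hmmr, a spindle-associated hyaluronan receptor, had the highest share among genes with at least 50 UMIs: 94.6% of 56 UMIs, with 3 UMIs in the other 172 cells. Ckap2l, a spindle protein, followed with 93.3% of 60 UMIs and Nusap1, which bundles spindle microtubules, with 91.5% of 59. Ccna2, which encodes cyclin A, had 90.98%, and Nuf2, a kinetochore protein, 87.3% of 55. At the other end, Bub3 had 18.4% of 305 UMIs and Bub1b 18.6% of 902, both near the 15.6% of all gene UMIs that these cells held. Smc4, a condensin subunit, had 35.8% of 909, the cytokinesis kinesin Kif23 37.04% of 135, and Ckap2 40.8% of 76. As CPM, 54 of the 56 genes were over 2-fold higher in the richest than in the other cells, where 7.07% of all 12862 genes tested were. The exceptions were Bub1b (log2 ratio 0.31, 0.06 to 0.55) and Bub3 (0.29, -0.16 to 0.71).

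Promoters were compared because many genes of this class are known to carry a CHR (cell cycle genes homology region) and CCAAT boxes near their start. RefSeq windows of GRCm38.p6, from 250 bases before to 50 after the start, matched 46 of the 56 genes. Not matched were Kif20a, Tpx2, Smc4, Ccna2, Spc24, Aurkb, Cdc25c, Dlgap5, Incenp and Cdca2. The CHR was searched as TTTGAA or TTCGAA and the CCAAT box as CCAAT, on both strands, with any overlap between them allowed. A CHR was in the windows of 37 of the 46 genes (80.4%), against 16.3% of 8773 other measured genes and 21.7% of all 27025 genes. A CCAAT box was in 71.7%, against 43.0% and 41.1%, and both motifs in 67.4%, against 6.83% and 8.61%. Letters of E2F sites (TTCCCGC or TTGGCGC) were in 21.7%, 14.2% and 7.79%, and a TATA box (TATAAA) in 2.17%, 8.32% and 15.7%. Median GC content was 58.8% in the 46 genes and 60.7% in the other measured genes. The sequences of the 3 matched genes with the highest and the 3 with the lowest share in the richest cells are shown, to set both ends of that order side by side. They run 5′ to 3′ on the gene's strand from 200 bases before to 20 after the start, with CHR and CCAAT letters of either strand in capitals.
Hmmr (chr11:40733418-40733637, minus strand): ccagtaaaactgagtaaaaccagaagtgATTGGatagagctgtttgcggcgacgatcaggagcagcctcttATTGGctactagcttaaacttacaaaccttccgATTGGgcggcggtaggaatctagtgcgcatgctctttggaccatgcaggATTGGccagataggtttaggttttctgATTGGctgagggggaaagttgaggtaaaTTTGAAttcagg
Ckap2l (chr2:129297193-129297412, minus strand): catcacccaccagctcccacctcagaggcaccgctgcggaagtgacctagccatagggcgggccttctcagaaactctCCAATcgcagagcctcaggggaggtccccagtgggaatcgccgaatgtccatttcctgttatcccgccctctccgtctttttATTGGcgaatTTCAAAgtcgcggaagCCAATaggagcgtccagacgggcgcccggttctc
Nusap1 (chr2:119618098-119618317, plus strand): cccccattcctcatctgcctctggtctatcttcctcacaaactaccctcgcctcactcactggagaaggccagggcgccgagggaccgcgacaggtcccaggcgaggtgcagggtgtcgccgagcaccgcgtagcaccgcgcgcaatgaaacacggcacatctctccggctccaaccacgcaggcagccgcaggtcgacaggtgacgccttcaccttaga
Kif23 (chr9:61946780-61946999, minus strand): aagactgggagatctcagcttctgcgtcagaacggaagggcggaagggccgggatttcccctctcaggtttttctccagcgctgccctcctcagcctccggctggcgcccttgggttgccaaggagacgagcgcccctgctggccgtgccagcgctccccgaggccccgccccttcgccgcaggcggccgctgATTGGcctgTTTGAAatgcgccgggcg
Bub1b (chr2:118598011-118598230, plus strand): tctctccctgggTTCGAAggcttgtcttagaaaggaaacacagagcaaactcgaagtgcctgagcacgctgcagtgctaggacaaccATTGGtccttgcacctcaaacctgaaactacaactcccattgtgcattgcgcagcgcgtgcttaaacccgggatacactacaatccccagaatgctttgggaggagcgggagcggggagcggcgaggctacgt
Bub3 (chr7:131560170-131560389, plus strand): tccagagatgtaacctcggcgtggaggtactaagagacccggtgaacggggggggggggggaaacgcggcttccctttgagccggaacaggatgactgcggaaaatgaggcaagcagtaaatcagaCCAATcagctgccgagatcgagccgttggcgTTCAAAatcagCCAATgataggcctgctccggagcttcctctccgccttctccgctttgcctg
Hmmr and Ckap2l, at the top of the order, carry a CHR within these bases, as do Kif23, Bub1b and Bub3 at the bottom, so presence of these letters did not follow the order among the 6. The window of Nusap1 holds neither motif. In Kif23 the CHR begins 3 bases past the RefSeq start. The GENCODE start of this minus-strand gene, at 61946774, lies further downstream. Bub1b has a further TTTGAA 41 bases past its start, beyond the bases shown. A match to letters is not a measured binding site.

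By role, the 8 genes of chromosome structure gave 38.8% of the UMIs. They are the condensin genes Smc2, Smc4, Ncapd2, Ncapg and Ncaph, the DNA untangling enzyme gene Top2a, the chromosome surface protein gene Mki67, and Cdca2, which recruits a phosphatase to chromosomes. Smc4 was found in 85.5% of the other cells, with 2 to 39 UMIs (median 15) in each of the 19 richest. Top2a had 851 UMIs, with 52 to 73 in cells 1, 2, 3, 4, 6 and 7. Cells 11 and 12 had 0 Top2a UMIs and cells 13, 14 and 19 had 2, 1 and 1, so the richest cells did not share it evenly. Mki67 was found in all 19, with 1 to 57 UMIs (median 20), and in 39 of the other 172 cells with at most 9.

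The group of Cdk1 and its cyclins, with Cdk1, the cyclin genes Ccna2, Ccnb1 and Ccnb2, the activating phosphatase gene Cdc25c and the mitotic entry factor gene Cdca3, had 75.6% of its 557 UMIs in the richest cells. Cdk1 itself had 58.5% of its UMIs there, below the median gene, and was found in 48 of the other cells, while Ccnb2 had 76.8% and Ccnb1 80.8% there. Cdk1 had 26 UMIs in cell 1, 16 in cell 7, 15 in cell 6 and 11 in cell 3, and 0 in cells 12, 13, 14 and 19. Ccnb1, the cyclin of mitotic entry, had 52 UMIs in all. Cell 1 held 19 of them, and no other cell of the 19 had over 4. Ccnb2 was also highest in cell 1, with 29 UMIs of 99, and had 7 in cell 14 and 6 in cell 19, where Cdk1 was at 0. Cyclin A (Ccna2) had 28 UMIs in cell 1, 14 in cell 3 and 12 in cell 2.

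Kinesins move or brace spindle microtubules. Those measured were Kif11, the motor that pushes spindle poles apart, Kif15, Kif4, Kif20a, Kif20b, Kif23 and Kif2c, which takes microtubules apart. They had 61.95% of 615 UMIs in the richest cells. Kif11 had 79.3% there, with 21 UMIs in cell 1 and 0 in cells 8, 9, 12 and 13. Kif15 had 84.5%, while Kif20b, with 94 UMIs in 56 of the other cells, had 45.98%.

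Centromere and kinetochore genes had 65.03% of 955 UMIs in the richest cells. Cenpa encodes the histone that marks centromeres, Cenpm a protein beside it, Cenpe and Cenpf proteins of the outer kinetochore, and Ndc80, Nuf2, Spc24, Spc25 and Knl1 the microtubule attachment network. Cenpf had 44 UMIs in cell 1, 34.4% of its total, and 10 in cell 14. Cenpe had 27 in cell 1 and 20 in cell 5, so these 2 cells held most of its UMIs in the richest. Cenpa had 22 in cell 1, 14 in cell 12, 13 in cell 14, 10 in cell 5 and 7 in cell 13, and at most 5 in each of the others. Knl1 ranged from 0 to 20, and its 20 lay in cell 2.

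The spindle checkpoint genes were the least concentrated group, with 23.2% of 1382 UMIs in the richest cells. Bub1b encodes BubR1 of the checkpoint complex and Bub3 its binding partner. Bub1b had 734 UMIs in 102 of the other 172 cells, with up to 28 in a cell, and from 0 to 31 in the richest (median 7). Its 902 UMIs were split unevenly between the pools, 270 in pool 1 and 632 in pool 2. Its Spearman correlation with the sum of the other 55 genes was 0.05 over 191 cells, against 0.47 for Top2a, the highest. Cells share library pool and differ in depth in such correlations. The annotation places no gene over Bub1b (chr2:118598211-118641591, plus strand of GRCm38). Bub3 was found in 121 of the other cells with at most 9 UMIs. Mad2l1 had 42.7% of 117 UMIs in the richest cells, the checkpoint kinase gene Bub1 81.3% of 32, and Ttk, the kinase that starts the signal, 76.9% of 26.

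Aurora and Polo kinase genes had 65.3% of 475 UMIs in the richest cells. Aurkb, Incenp, Cdca8 and Birc5 form the chromosomal passenger complex, which corrects attachments, Aurka and Plk1 act at the poles, and Plk4 duplicates centrioles. Plk1 had 17 of its 43 UMIs in cell 1 and Aurka 11 of 31, and no other of the 19 cells had over 4 of either. Incenp was highest in cell 3, with 14 UMIs, and Aurkb in cell 10, with 10. Plk4 had 42.9% of 98 UMIs in the richest cells, the lowest of the group.

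Spindle genes (Tacc3, Tpx2, Prc1, Ckap2, Ckap2l, Nusap1, Hmmr and Dlgap5) had 67.9% of 576 UMIs in the richest cells. Hmmr had 20 UMIs in cell 1 and 11 in cell 5, and Prc1, which bundles the central spindle, 20 in cell 1, 11 in cell 10 and 10 in cell 3. Tpx2, the activator of Aurora A, had 17 in cell 1 and 8 in cell 7. Nusap1 had 11 UMIs in each of cells 1 and 7, 10 in cell 2 and 6 in each of cells 3 and 4. Nusap1 overlaps Oip5 on the other strand, which had 54 UMIs, and whether the counting used strand is not given. Dlgap5 had 41.7% of 48 UMIs in the richest cells. Of the cytokinesis genes, Racgap1 and Ect2, which place the contractile ring, and Anln, a ring scaffold, had 60.2% of their UMIs there. Anln was highest in cells 5 and 10, with 9 and 8 UMIs.

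The 3 genes of anaphase and exit were found in few cells. Ube2c, the ubiquitin-conjugating enzyme of the anaphase-promoting complex, had 19 of 57 UMIs in cell 1, 12 in cell 5 and 6 in cell 11. Cdc20, its activator, had 9 of 43 in cell 1 and 4 in cell 3, with 19 UMIs in 18 of the other cells. Espl1, the protease that cuts cohesin, had 23 UMIs in 15 cells. Together the 3 had 31 UMIs in cell 1 and 15 in cell 5. They had 0 in cells 2, 15, 17, 18 and 19, and 10 or fewer in each of the rest.

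**Figure D2:**
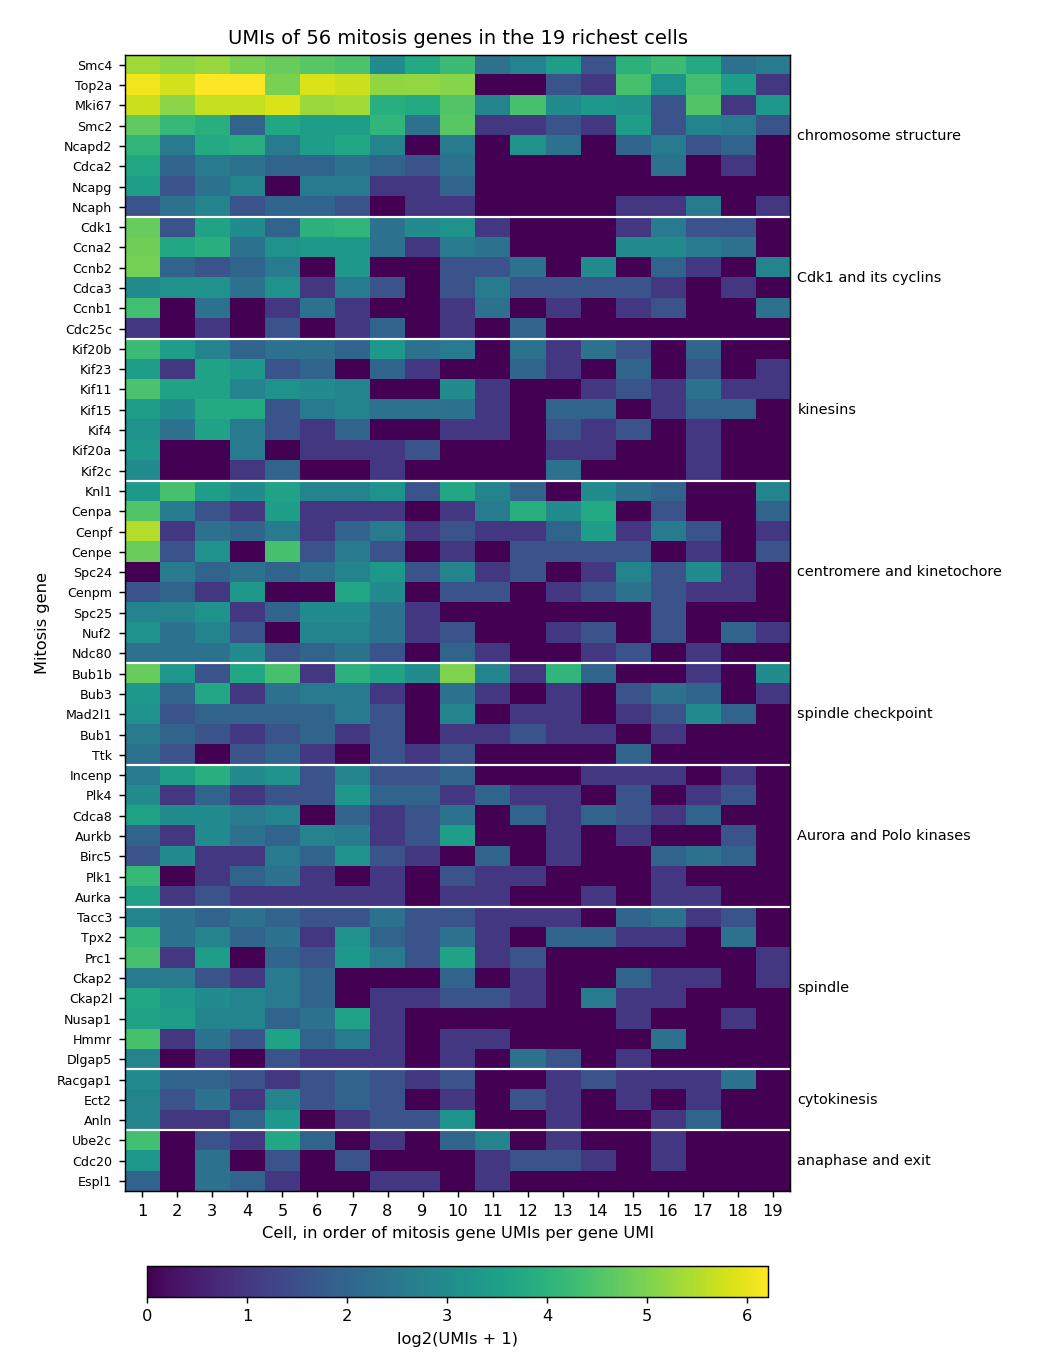
UMIs of the 56 genes (rows, by role) in the 19 richest cells (columns, in rank order), coloured as log2(UMIs + 1). Cell 1 is bright across all roles, with Spc24 the gene at 0. Top2a is dark in cells 11 to 14 and in cell 19. Of the anaphase and exit genes, Ube2c is brightest in cells 1 and 5, Cdc20 in cells 1 and 3 and Espl1 in cell 3.

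DNA replication and histone genes, which are known to be expressed mainly in S phase, split the richest cells. The 52 replication genes stood at a median of 7441 CPM in the 19 cells and 1690 in the other cells, where they reached 9139.6. The 29 replication-dependent histone genes stood at 8623 and 245 CPM. Cells 2, 3, 4, 6, 7, 8, 10 and 16 were high in both, at 6056 to 11495 CPM for replication and 9496 to 17006 for histones. Cells 9, 11, 15, 17 and 18 were high in replication genes alone, with 195 to 1330.2 CPM of histones. Their replication genes ran from 4679 CPM in cell 11 to 11540 in cell 9. Cells 1 and 5, with the most anaphase and exit UMIs, had 2082 and 1922 CPM of replication genes but 9406 and 8623 of histones. The anaphase and exit counts were not scaled by depth: cell 5 had 15 among 39545 gene UMIs and cell 11 had 8 among 15173. Cells 12, 13, 14 and 19, low in Top2a and with Cdk1 at 0, stood at 1240.2 to 1739 for replication and 1841 to 4565 for histones. These sets of cells were read off after their values were seen. Replication-dependent histone RNAs mostly lack the poly(A) tail on which the libraries were primed, and many histone genes are near-identical copies, so their levels are uncertain.

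**Figure D3:**
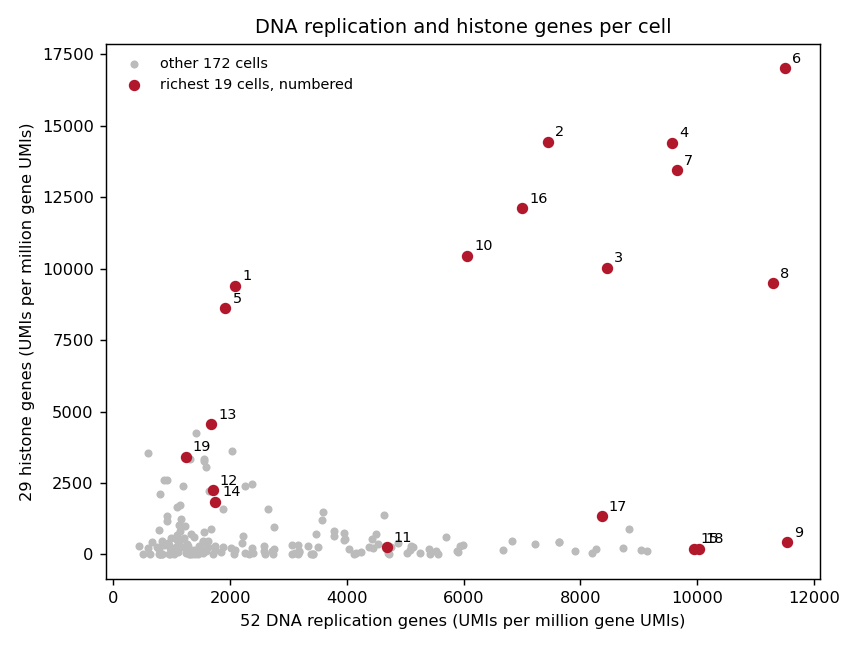
CPM of 52 DNA replication genes (x axis) and 29 histone genes (y axis) in each cell, with the 19 richest cells in red and numbered by rank and the other 172 in grey. Cells 1 and 5 lie at 2082 and 1922 on the x axis and at 9406 and 8623 on the y axis; cells 9, 11, 15, 17 and 18 lie at 195 to 1330.2 on the y axis, beside grey cells.

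Further genes of the division programme were higher in the same cells. Of 65 other mitosis genes with enough UMIs, 55 were over 2-fold higher in the 19 richest cells, with a median log2 ratio of 2.44, against -0.12 over all genes. Of all genes 7.07% were over 2-fold higher in these cells and 14% over 2-fold lower. Hmgb2, a chromatin protein of dividing cells, stood at 653 against 117 CPM, and Tubb4b, a tubulin, at 395 against 87.6. Of the replication genes 31 of 52 were over 2-fold higher (median 1.32). Pcna, the polymerase clamp, had a log2 ratio of 1.37 (1.21 to 1.52), and the helicase genes Mcm7, Mcm6 and Mcm3 had 0.55, 0.44 and 0.27. All 20 histone genes tested were over 2-fold higher (median 3.81). Of 15 genes of Cdk inhibitors and quiescence, 3 were over 2-fold higher and 1 lower, the latter a smaller share than over all genes. Higher were the inhibitor genes Cdkn2c, with a log2 ratio of 2.92 (1.90 as the lower bound), Cdkn1a (1.27) and Cdkn2d (1.17), and lower was Foxo3 (-1.43), a transcription factor of stem cell quiescence.

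Lineage genes differed from cell to cell among the richest. Of 16 stem cell genes 9 were over 2-fold lower in the richest cells, where 14% of all genes were, with a median of -1.06. Hlf, a stem cell transcription factor, stood at 305 against 667 CPM and Angpt1 at 253 against 541. The 21 lymphoid priming genes had a median of 0.01 and the 15 granulocyte-monocyte genes -0.95. Erythroid genes were over 2-fold higher for 14 of 19 (median 2.00), where 7.07% of all genes were, but cells 5, 10, 11 and 16 stood at 6246 to 10084 CPM of this list and the median of the 19 was 1050.3, against 919 in the other cells. The 8 B lineage genes were all over 2-fold higher (median 4.36), yet cell 6 held 184 of the 205 B lineage UMIs of the richest. This cell had 88.1% of all Cd79a, 92.5% of Igll1 and 74.1% of Vpreb1 UMIs. Cell 9 had 38 of the 88 UMIs of T, ILC and NK genes in the richest. The part of these lineages in the mitosis gene levels was not tested.

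Genes other than the 56 were also ordered by how closely their CPM followed the sum of the 56 over 191 cells. Genes of the lists above, such as Hmgb2, were not left out. Highest were Stmn1 (Spearman 0.55) and Tuba1b (0.54), of the microtubules, the transport GTPase gene Ran (0.54), the chaperone gene Hsp90aa1 (0.52) and Mcm5 (0.52). They were followed by Dut (0.51), Uhrf1 (0.50), H2afz (0.50), Ybx1 (0.49) and Hmgb2 (0.49). Without the richest cells these correlations were 0.30 to 0.48. The lowest were Msi2 (-0.38), an RNA-binding protein of stem cells, Itm2b (-0.38), Sox4 (-0.37), Ifi203 (-0.37) and Ogt (-0.35). These are the ends of an order of 7481 genes.

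The richest cells were large by light scatter. Forward scatter, which grows with cell size, had a median of 164000 in the 19 cells (125000 to 183000) and 134500 in the other 172 (102000 to 177000), so the ranges overlapped. Cells were ranked within their pool, and the 32 highest and 32 lowest of each pool form the upper and lower class. In forward scatter 14 of the 19 cells fell into the upper class (73.7%, 48.8 to 90.9), 3 into the middle and 2 into the lower, and 14 of 17 carriers fell into the upper. Of the 10 richest, 9 lay there. The exception was cell 5, at 126000. Side scatter placed 11 of the 19 high, 4 in between and 4 low.

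By surface signal the richest cells were spread over all classes. In CD150, a stem cell marker, 9 belonged to the upper class, 8 to the middle and 2 to the lower. CD127, the interleukin-7 receptor, gave 9, 5 and 5, CD11b 10, 4 and 5, CD16/32 8, 5 and 6, and cKit 7, 7 and 5. In CD135, the Flt3 receptor of multipotent and lymphoid progenitors, 4 belonged to the upper, 5 to the middle and 10 to the lower class, and in Sca-1 6, 3 and 10. Of the 10 richest, 9 lay in the upper class of CD127, 7 in that of CD150 and 7 in that of CD11b. For cKit it was 5, for CD16/32 and Sca-1 4 each, and for CD135 3. The richest had a median CD135 signal of 340.3 (173 to 4783) against 651 (-31.2 to 4407) in the other cells. Within these numbers cell 4 had the highest CD135 signal of all 191 cells and cell 2 stood at 2903, both in the upper class.

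**Figure D4:**
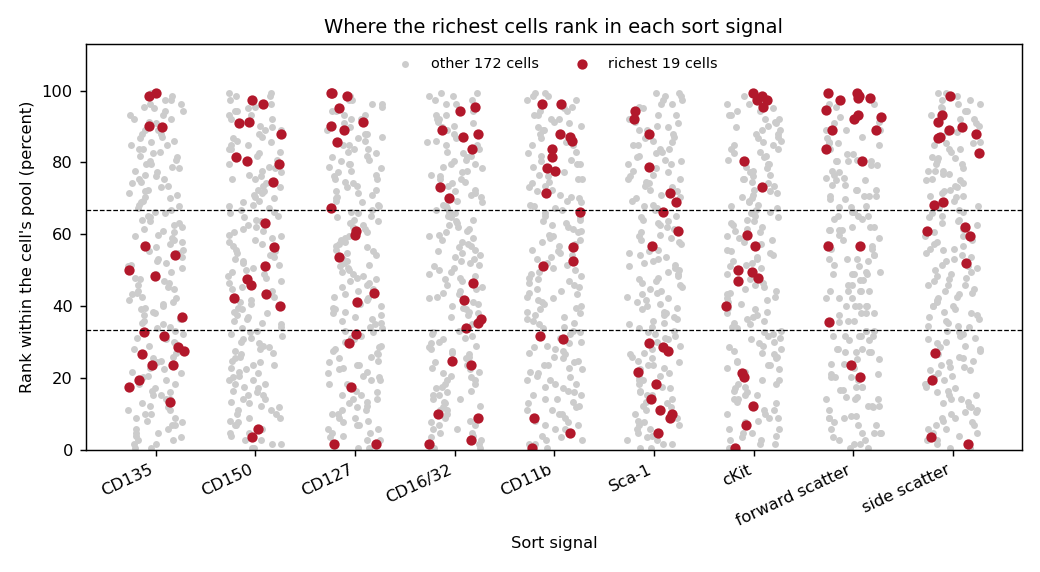
Rank of each cell within its pool (percent, y axis) for the 9 sort signals (x axis), with the 19 richest cells in red and the other 172 in grey; dashed lines part the lower, middle and upper class, and points are spread sideways for sight. In forward scatter 14 red points lie above the upper line, in CD135 4, and in CD150 2 lie below the lower line.

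Did the summed level of the 56 genes follow the signals? The largest upper-to-lower ratios were those of CD127, side scatter, forward scatter, CD150 and CD11b, and they shrank without the 19 richest cells. By forward scatter the lower class stood at 1378 CPM (1305 to 1454), the middle at 1191 and the upper at 3327 (3238 to 3419), a log2 ratio of 1.27 (1.19 to 1.36). Without the richest it was 0.46 (0.35 to 0.58). In the upper class 41 of 56 genes were over 2-fold higher, against 6.75% of all genes, and 0 lower, against 6.61%. Without the richest 14 of 38 genes with enough UMIs were higher, against 5.43%, and 4 lower, against 6.21%. Pool 1 gave 1.95 and pool 2 0.58, or 0.44 and 0.49 with the richest left out. Depth moved with it: the upper class had a median of 22426.5 gene UMIs and the lower 15329.5. Its part in the ratio was not tested beyond the thinned value of 1.16. Over single cells the Spearman correlation of the summed CPM was 0.39 with forward scatter and 0.37 with gene UMIs, and 0.28 and 0.24 without the richest.

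Single genes differed within the forward scatter classes. Kif15 had 84 UMIs in the upper and 5 in the lower class (log2 3.39, 2.11 to 5.05), Ncapg 58 and 3 (3.59, 1.97 to 5.91) and Top2a 683 and 85 (2.32, 2.00 to 2.67). Without the richest cells Top2a remained higher in the upper class, with 153 against 54 UMIs (1.23, 0.77 to 1.70), as did Bub1b (0.71, 0.43 to 1.00) and Kif20b (1.17, 0.36 to 2.03). Cenpa then stood lower in the upper class, with 16 against 38 UMIs (-1.53, -2.47 to -0.65), while Mki67 had 29 and 30. The genes therefore did not share 1 direction in these cells.

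Side scatter, which reflects internal structure, gave a ratio of 1.30 (1.21 to 1.38) and 0.32 (0.20 to 0.44) without the richest. In its upper class 44 of 56 genes were over 2-fold higher, against 5.83% of all genes, and 0 lower, against 4.97%. Without the richest 6 of 35 were higher, against 4.42%, and 3 lower, against 5.27%. Nusap1 (51 and 4 UMIs) and Cdca8 (60 and 6) differed most clearly, with Top2a at 410.0 against 115 CPM.

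By CD150 the classes stood at 1395 CPM in the lower, 1839.6 in the middle and 2999.6 in the upper class, a log2 ratio of 1.11 (1.02 to 1.19), 1.04 in pool 1 and 1.17 in pool 2. Of the 56 genes 42 were over 2-fold higher in the upper class, against 6.96% of all genes, and 0 lower, against 4.36%. Knl1 had 110 against 20 UMIs, Cenpm 56 against 9 and Top2a 490 against 139. In cells other than the richest the classes stood at 1105, 1095 and 1218 CPM, the ratio was 0.14 (0.03 to 0.26), and 6 of 35 genes were higher and 4 lower by over 2-fold, against 5.47% and 4.14%. Cdk1 still had 42 against 16 UMIs in these cells (1.36, 0.50 to 2.29). Median cells of the lower, middle and upper class stood at 944, 1033 and 1159 CPM with all cells.

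By CD127 the ratio was 1.37 (1.28 to 1.45), with 46 of 56 genes over 2-fold higher against 6.2% of all genes and 0 lower against 4.44%. Without the richest it was 0.29 (0.17 to 0.41), with 8 of 33 higher against 4.48% and 1 lower against 5.03%. Pool 1 gave 1.81 and pool 2 0.81. Nusap1 had 55 against 2 UMIs, Top2a 602 against 92 and Mki67 385 against 87. In cells other than the richest, Top2a stood at 122 against 58.9 CPM (1.05, 0.60 to 1.52). The 14 cells with a CD127 signal above 2000 stood at 4670.3 CPM, against 1919 in the other 177. Cells 3, 4, 6 and 9 were among the 14 and held 1207 of their 1418 mitosis gene UMIs (85.1%). The other 10 had at most 39 UMIs each. With the richest left out the levels were 1225 and 1136 CPM.

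CD11b gave 0.997 (0.918 to 1.08) and 0.27 (0.15 to 0.39) without the richest, with 39 of 56 and 7 of 34 genes over 2-fold higher, against 5.57% and 4.94%. Lower were 0 and 4, against 4.8% and 4.76%. The pools differed, with 1.59 in pool 1 and 0.28 in pool 2. Cdca3 had 50 against 10 UMIs, Knl1 117 against 32 and Cdk1 113 against 33.

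CD16/32, the Fc gamma receptor of myeloid progenitors, gave 0.50 (0.42 to 0.58) and 0.41 (0.30 to 0.53) without the richest. Of the genes 12 of 55 were over 2-fold higher, against 5.25%, and 7 of 39 without the richest, against 5.11%. Lower were 1 and 0, against 4.31% and 4.49%. Smc2 stood at 130.2 against 65.2 CPM and Bub1b at 311.3 against 190.3 CPM. Without the richest, Bub1b stood at 306.0 against 197.8 CPM. With all cells pool 1 gave 0.74 and pool 2 0.03; without the richest they gave 0.26 and 0.55. Single cells weighed on the pooled value, which was 0.18 without cell 1 and 0.79 without cell 3. The upper class was deeper, with a median of 20964 gene UMIs against 16665, and the part of depth was not tested beyond thinning.

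cKit gave 0.39 (0.32 to 0.47), 0.32 (0.20 to 0.43) without the richest and 0.09 without cell 1. Over 2-fold higher were 13 of 56 genes against 6.66%, and 3 of 34 against 6.84% without the richest. Lower were 0 and 2, against 5.12% and 5.23%. Smc2 had 196 against 75 UMIs and Cdk1 99 against 47. Cell 3, at the low end of cKit, weighed the other way: without it the ratio was 0.66.

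The 2 signals with a lower level in the upper class were CD135 and Sca-1. CD135 gave -0.41 (-0.49 to -0.33), from 2666 CPM in the lower to 2006 in the upper class. Of the 56 genes 18 were over 2-fold lower in the upper class, against 8.42% of all genes, and 1 higher, against 5.88%. Pool 1, which holds cell 1, gave -0.39 and pool 2 gave -0.42 (-0.54 to -0.30). Single cells moved the pooled value: without cell 1 it was -0.08 (-0.16 to 0.00446), and without cell 3 -0.66. With the 24 highest and lowest cells of each pool in place of 32 it turned to 0.20; cell 1 then lay in neither class. Without the 19 richest it was -0.11 (-0.23 to 0.01), with 4 of 35 genes over 2-fold higher and 6 lower, against 6.18% and 7.66%. Cenpa had 27 against 89 UMIs in the upper and lower class and Cdk1 39 against 92.

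Of the 56 genes, 12 had a log2 ratio above 0 in CD135, and Kif23 was the 1 gene over 2-fold higher, where 5.88% of all genes were. It had 70 UMIs in the upper class, in 38 of 64 cells, and 33 in the lower, in 12 of 63 cells (1.17, 0.56 to 1.82). Without the richest cells it had 49 UMIs in 35 cells against 10 UMIs in 5 cells (2.16, 1.16 to 3.31), at 2.12 in pool 1 and 2.20 in pool 2. No cell held over 8.47% of these UMIs. Its Spearman correlation with the other 55 genes was 0.03, the lowest of the 56, and Kif23 was lower in the upper class of CD150 without the richest (23 against 39 UMIs, -0.80, -1.61 to -0.02). Kif23 lies at chr9:61915905-61946774 on the minus strand of GRCm38, and the annotation places no other gene over it.

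Sca-1 gave -0.19 (-0.26 to -0.11) and -0.27 (-0.39 to -0.14) without the richest, with 7 of 55 and 9 of 34 genes over 2-fold lower, against 4.48% and 4.74%. Higher were 1 and 2, against 7.19% and 6.77%. Pool 1 gave 0.02 and pool 2 -0.46 with all cells, and -0.31 and -0.24 without the richest. With all cells 1 cell decided the size: the ratio was -0.01 without cell 3 and -0.37 without cell 2. Without the richest, Mki67 had 17 against 41 UMIs (-1.20, -2.11 to -0.36).

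**Figure D5:**
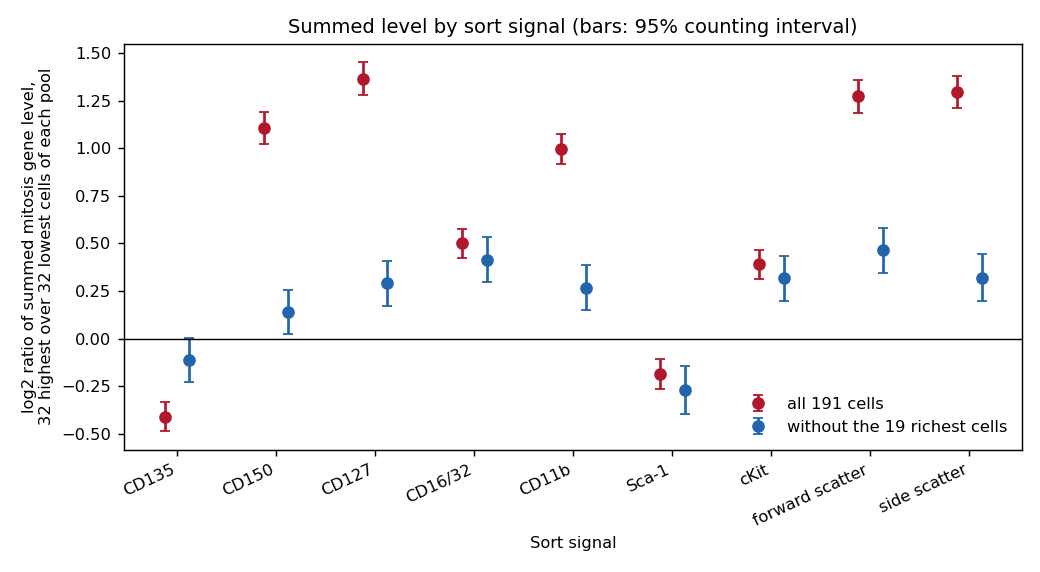
Log2 ratio of the summed level of the 56 genes between the upper and lower class of each sort signal, over all 191 cells (red) and without the 19 richest (blue); bars are 95% counting intervals. CD150 falls from 1.11 to 0.14 and forward scatter from 1.27 to 0.46, while CD16/32 goes from 0.50 to 0.41 and Sca-1 from -0.19 to -0.27.

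CD135 and CD150 classes were also crossed. The 30 cells low in CD135 and high in CD150 held 5 of the richest and stood at 3468 CPM. The 15 cells high in both held 3 and stood at 3337, and the 26 cells high in CD135 and low in CD150 held none and stood at 1109. With the richest left out the same 3 sets stood at 1279.7, 1052 and 1109 CPM. Median cells of these 3 sets stood at 1239, 1161 and 803 CPM. The 17 cells low in both signals held 1 of the richest and stood at 1548 CPM. Without it they stood at 1321 CPM, the highest summed level of all crossed sets with the richest left out. The median cell of all 17 stood at 955 CPM, below those of the cells high in CD150 and low or high in CD135.

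In the other 172 cells the 56 genes summed to 1140.4 CPM, and cells ranged from 127 to 2947. Bub1b, Smc4, Top2a and Bub3 gave 1848 of these 3567 UMIs, or 51.8%, against 25.6% in the richest cells. Of the 56 genes, 26 were found in at most 10% of these cells, and 5 were found in at least 75 of them. These 4 genes therefore weighed most in the ratios without the richest cells.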

How the data were processed

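The authors deposited UMI counts for each gene in each cell, whole numbers that were not normalized. CEL-seq2 libraries were primed on poly(A), with an 8-base cell index, a 6-base UMI and ERCC spike-ins, per the labels' protocols. No aligner, counting tool, use of strand or UMI rule is given in the sources used here. The submitters' processing notes name GRCh38, while all identifiers are of mouse genes, so the build is not known. Symbols and positions come from GENCODE M21 (GRCm38) by identifier, and 29 of the 56 genes overlap another annotated gene. Columns matched samples by title, with 0 unmatched.

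Cells needed 20% of their pool's median gene UMIs. They were sorted singly. Doublets were not called, so any among the kept cells remained. CPM are summed UMIs per 1000000 gene UMIs, without the 71 spike-ins. Ratios have exact conditional binomial, sums exact Poisson and shares exact Clopper-Pearson 95% intervals; a class at 0 UMIs was set to a floor of 3. A gene counted as changed past 2-fold, with 10 or more UMIs over both classes. Classes were ranked before the cell filter. Ratios were checked on simulated counts. UMIs are not a sample of animals, and intervals cover counting error only.

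Members, lists and classes were chosen with earlier results of these data known. The text names up to 4 genes per role or list by UMIs, the 5 with the highest and lowest share in the richest cells, up to 3 per signal and direction by the distance of the interval from 0 (50 or more UMIs, pools of equal sign, no cell over 20%), and genes most and least correlated with the sum. Values of individual cells, Kif23 by cell counts, and genes named for a low or high count in a given cell were picked with their values in view. Alternatives were other numbers of richest cells, quartiles, each pool, equal weight per cell, spike-in scaling, thinning and fewer members. Python 3.11.15, numpy 2.4.6, pandas 2.3.3, scipy 1.17.1 and matplotlib 3.10.9 were used.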

Additional observations from a re-analysis of the deposited data

How the results depend on the processing

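The 10 richest cells held 44.8% of the UMIs and the 38 richest 67.6%. Without Bub1b the 19 held 59.5%, and without Smc4, Bub1b and Top2a 62.7%. Carriers numbered 43 at 14 genes, 9 at 42 genes and 9 after thinning. The log2 ratios of upper over lower class moved as follows. Without the richest cells they were -0.11 for CD135, 0.14 for CD150, 0.29 for CD127, 0.41 for CD16/32, 0.27 for CD11b, -0.27 for Sca-1, 0.46 for forward scatter and 0.32 for side scatter. Without cell 1 alone, chosen after seeing the data, they were -0.076, 0.85, 1.14, 0.18 and 0.76 for the first 5 of these signals, 0.086 for cKit, and 1.07 for both forward and side scatter. Without the 3 genes with the most UMIs, also chosen after seeing the data, CD135 gave -0.54, CD150 1.32, CD127 1.59, CD11b 1.23, Sca-1 -0.27 and side scatter 1.48. Pool 1 gave 1.81 for CD127, 0.74 for CD16/32, 1.59 for CD11b, 1.95 for forward scatter and 0.022 for Sca-1, the opposite sign; pool 2 gave 0.81, 0.033, 0.28, 0.58 and -0.46. With 24 cells per class and pool, CD135 turned to 0.20, and CD150 gave 0.95, CD127 1.58, CD11b 1.10 and forward scatter 1.48. With each cell weighing equally CD150 gave 0.89, CD127 0.96, CD11b 0.75, Sca-1 -0.27 and side scatter 0.96. Scaled by spike-ins, CD150 gave 1.40, CD127 1.67, CD16/32 0.65, CD11b 1.30, Sca-1 -0.47, cKit 0.67, forward scatter 2.02 and side scatter 1.63. In thinned cells CD150 gave 0.85, CD127 1.08, CD11b 0.83, Sca-1 -0.32, cKit 0.28, forward scatter 1.16 and side scatter 0.97. Apart from the part shown by leaving out cells or genes, the causes were not tested. No paired analysis was possible because all cells form 1 group. With a median of 17 UMIs of the 56 genes in a cell, a gene at 0 in a cell may be undetected at this depth.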
